A study of Rattus norvegicus with 2 samples.

Results

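The GADD45, IER and other early genes described here are Gadd45a, Gadd45b, Gadd45g, Ier2, Ier3, Ier5, Ier5l, Csrnp1, Sik1 and Arc. They were found by gene name among the non-control probes of the arrays, which gave 10 genes of 27103 with a gene name, read by 14 probes and 44 spots. The cells were IEC6, a non-transformed epithelial line derived from rat small intestine, grown in dishes and kept in DMEM with 0.1% fetal calf serum during treatment. A dish culture received 100 µM Na2S3 (sodium trisulfide, an inorganic polysulfide) for 60 min, and another received water for 60 min. The labels' treatment protocol writes the dose as 100 mM, and which of the units applies is not settled by the labels. Total RNA from each was hybridised to 1 single-colour (Cy3) Agilent array, so each group holds 1 array, there are no replicates, and no p-value is given. "Higher" and "lower" therefore compare these arrays, and the errors given are the error of spots within an array.

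GADD45 proteins are small acidic nuclear proteins that bind the kinase MAP3K4, upstream of p38 and JNK, and also PCNA, p21 and the CDK1-cyclin B1 complex. They are known for growth arrest and DNA repair under stress. Ier2, Ier5 and Ier5l share an N-terminal domain and act in the nucleus, while Ier3 (IEX-1) is an unrelated regulator of cell survival that carries a similar name. Csrnp1 is a nuclear protein of the cysteine-serine-rich family, Sik1 is a salt-inducible kinase that holds CRTC coactivators of CREB in the cytoplasm, and Arc is a capsid-like cytoskeletal protein best known from neurons. Transcripts of many of these genes appear within an hour of a mitogen, hormone or stress signal without new protein synthesis.

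Sik1 and Ier2 were more than 2-fold brighter after Na2S3, with log2 ratios of 1.46 and 1.31. Arc passed the background limit after Na2S3 only. The signals of its probe gave a ratio of 2.92-fold, which dropped to 1.41-fold with normexp background correction. Csrnp1 (1.69-fold), Gadd45a (1.56-fold) and Ier3 (1.41-fold) stood below 2-fold. Ier5, Gadd45g and Ier5l were close to the water array at their brightest probes, with log2 ratios of 0.26, 0.16 and 0.13, and Gadd45b was the only measured member with a negative log2 ratio. Counting 2-fold or more, 2 of the 9 members measured on both arrays were higher and 0 lower. Among all 13019 genes measured in this way, 0.945% were higher and 0.614% lower by that rule. The median log2 ratio of the 9 was 0.50, beside -0.04 for all measured genes, and 8 of the 9 were positive, beside 43.4% of all. The members were chosen with earlier results of these data known, so these shares describe them and test nothing. RNA came from whole dishes, in which less RNA per cell and fewer cells of a kind cannot be told apart.

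The scaled signal used below divides the software's processed signal by the 75th percentile of all non-control probes of the same array, so that 1 is the level of that percentile. That percentile was 478 intensity units in the Na2S3 array and 413 in the water array. Probes well above background numbered 22349 of 45598 (49.0%) in the Na2S3 array and 22560 (49.5%) in the water array. No spot was saturated (0 of 58717). Of 9 general epithelial markers, 7 were measured on both arrays, with log2 ratios of -0.06 to 0.44 and a summed scaled signal of 102 in each array. That sum came mostly from Cdh1, Krt8 and Tjp1, while Krt18, Krt19, Cldn1 and Ocln were dim, at 0.14 to 0.61 over both arrays. Of 10 intestinal markers with a probe, 2 were measured (Cdx1 and Ascl2), summing to 4.70 in the Na2S3 array and 5.49 in the water array. The defining intestinal markers Vil1, Cdx2 and Lgr5, and the epithelial markers Epcam and Cldn4, stayed at background in both. Fibroblast markers were measured for 7 of 9, Col1a1 and Vim among them but without Pdgfra and Pdgfrb, with a summed scaled signal of 691 in the Na2S3 array and 765 in the water array and log2 ratios of -0.43 to 0.03. Thy1 and Acta2 of that list were dim, at 0.244 and 0.132 in the Na2S3 array and 0.311 and 0.159 in the water array. Endothelial markers were measured for 3 of 5, without Pecam1 and Kdr, and summed to 6.70 in the Na2S3 array and 8.14 in the water array. These markers do not show whether cells other than IEC6 were in the dishes. Any part of such cells in the ratios below was not tested.

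**Figure D1:**
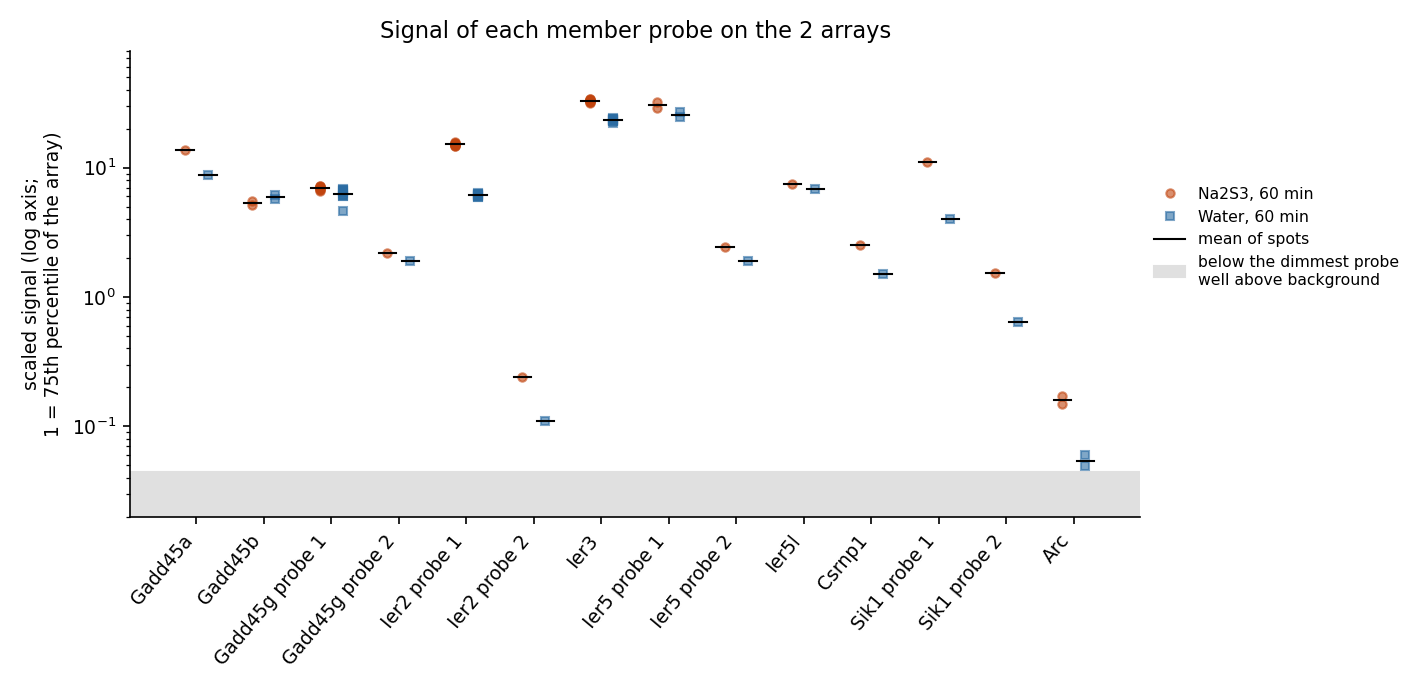
Scaled signal of every member probe (log axis, 1 is the 75th percentile of the array) in the Na2S3 array (circles) and the water array (squares), with each point 1 spot and each bar the mean of a probe's spots. Ier2, Sik1 and Arc show the widest gaps, whereas the Gadd45b, Gadd45g, Ier5 and Ier5l pairs lie close together.

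The 3 GADD45 genes did not share a common ratio. Gadd45a, a p53 target that also answers many p53-independent stresses, had a scaled signal of 13.7 in the Na2S3 array and 8.76 in the water array. Gadd45b, which TGF-beta and NF-kB signalling induce, had 5.51 and 5.12 at its spots in the Na2S3 array, against 6.16 and 5.72 in the water array. The Gadd45a probe was thus brighter after Na2S3, and the scaled Gadd45b spots were slightly dimmer, each spot below its counterpart in the same position. Before scaling, the Gadd45b spots had 2630 and 2447 units in the Na2S3 array, above 2548 and 2365 in the water array. The sign of Gadd45b thus rested on the scaling, and it stayed negative under every alternative. Gadd45g, an inhibitor of proliferation that cytokines induce, was read by a probe spotted 10 times. Its 9 usable spots ran from 6.61 through a median of 7.02 to 7.21 in the Na2S3 array, and its 10 spots in the water array from 4.64 through 6.45 to 6.88. The spot ranges of Gadd45g overlapped between the arrays.

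On the log2 scale, Gadd45a stood at 0.64 ± 0.11 (spot error), Gadd45b at -0.16 ± 0.06 and Gadd45g at 0.16 ± 0.02. The second Gadd45g probe, 528 bases away on the map, gave 0.20 ± 0.07. Where a probe had 10 spots, the spot error is the standard error over spot pairs. Elsewhere it comes from the spread of repeat probes at a similar signal, since 8 of the 14 probes were spotted once. The Gadd45g value counts a water spot whose Na2S3 counterpart was discarded as an outlier. Its 9 complete pairs alone, from which its error comes, averaged 0.11. Gadd45a exceeded Gadd45b by 0.80 ± 0.12 and Gadd45g by 0.48 ± 0.11, and these differences ran from 0.76 to 0.83 and from 0.44 to 0.54 over the alternative ways of processing. The difference of Gadd45g and Gadd45b was 0.32 ± 0.06, and 0.28 ± 0.06 with outlier spots kept. Of all measured genes, 2.43% had a ratio as high as Gadd45a or higher, 20.5% as high as Gadd45g and 71.3% as high as Gadd45b. Within this family, Gadd45a was therefore apart from its paralogs by more than spot error, and its own value rested on 1 spot per array. Differences between probes are not part of spot error.

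The GADD45 probes lie on different chromosomes, in the rn4 coordinates of the files: Gadd45a at chr4:96650454-96650513, Gadd45b at chr7:10289049-10289076 and the brighter Gadd45g probe at chr17:19230893-19230949, all on the minus strand. Whether they fall in an exon or a UTR was not analysed here. The promoters of the 3 paralogs are shown to set their sequences beside their unequal ratios, from RefSeq on GRCr8, as 250 bases before to 50 after the start of the gene, 5′ to 3′. They span chr4:97486750-97487049 for Gadd45a, chr7:9430669-9430968 for Gadd45b and chr17:13530302-13530601 for Gadd45g, each on the minus strand. Capitals mark the letters TGACG on either strand (CGTCA where reversed), the core that the full cyclic AMP response element TGACGTCA holds, and the TATA box TATAAA.
Gadd45a: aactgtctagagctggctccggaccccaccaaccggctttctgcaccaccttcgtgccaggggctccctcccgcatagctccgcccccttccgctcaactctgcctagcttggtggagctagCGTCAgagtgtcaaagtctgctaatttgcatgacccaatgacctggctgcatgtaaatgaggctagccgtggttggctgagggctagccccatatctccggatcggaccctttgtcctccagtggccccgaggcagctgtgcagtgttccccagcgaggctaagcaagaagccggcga
Gadd45b: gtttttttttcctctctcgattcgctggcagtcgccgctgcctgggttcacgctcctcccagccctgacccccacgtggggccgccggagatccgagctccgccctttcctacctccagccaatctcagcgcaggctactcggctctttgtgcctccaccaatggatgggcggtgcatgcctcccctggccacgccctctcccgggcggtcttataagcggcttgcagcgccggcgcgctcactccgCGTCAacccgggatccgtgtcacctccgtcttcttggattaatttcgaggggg
Gadd45g: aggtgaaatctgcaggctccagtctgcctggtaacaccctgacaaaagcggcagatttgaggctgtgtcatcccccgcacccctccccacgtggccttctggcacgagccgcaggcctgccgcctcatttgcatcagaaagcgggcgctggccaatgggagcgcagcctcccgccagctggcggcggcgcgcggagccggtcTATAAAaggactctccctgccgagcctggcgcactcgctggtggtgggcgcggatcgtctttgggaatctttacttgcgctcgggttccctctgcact
Gadd45a and Gadd45b each held 1 TGACG core, beginning at positions -128 and -3 from the start, and Gadd45g held a TATA box at -48. The antioxidant response element core TGACNNNGC was found in Gadd45a at -90 and in Gadd45g at -189, and is in 12.1% of all 33469 promoters of the same length. Whether any of these motifs bears on the ratios of the 3 genes was not tested.

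Among the genes with the IER domain, Ier2 stood apart. Ier2, a nuclear protein induced by growth factors, was read by a probe with 10 spots, which ran from 14.6 through a median of 15.2 to 15.9 in the Na2S3 array and from 5.90 through 6.10 to 6.36 in the water array. The spot ranges did not overlap, and every one of the 10 spot pairs gave a log2 ratio between 1.27 and 1.34. The probe value was 1.31 ± 0.0068, or 2.48-fold. These spots share 1 RNA sample per array and do not replicate the treatment. A second Ier2 probe, 1271 bases away, had a scaled signal of 0.239 in the Na2S3 array and 0.111 in the water array, a log2 ratio of 1.11 ± 0.19. The Ier2 probes thus differed by 0.20 ± 0.19, and each was past 2-fold.

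Ier5, a partner of the phosphatase PP2A through which HSF1 is activated, had 29.1 and 32.1 at the spots of its brighter probe in the Na2S3 array, against 24.5 and 26.7 in the water array. Its log2 ratio was 0.26 ± 0.05 at that probe and 0.35 ± 0.07 at the other, 1053 bases away. Ier5l, the closest relative of Ier5, had 7.52 in the Na2S3 array and 6.87 in the water array, a log2 ratio of 0.13 ± 0.08 from 1 spot. Both genes were thus slightly brighter after Na2S3, Ier5l by less than 2 spot errors. Ratios as high or higher were found in 12.3% of measured genes for Ier5 and in 23.5% for Ier5l. Ier2 exceeded Ier5 by 1.06 ± 0.05 and Ier5l by 1.18 ± 0.08, and these differences stayed between 0.91 and 1.06 and between 1.08 and 1.20 under the alternatives.

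Ier3, whose product influences apoptosis and ERK signalling, had 10 spots as well. They ran from 31.4 through 33.0 to 34.0 in the Na2S3 array and from 22.1 through 23.3 to 24.1 in the water array. These ranges did not overlap, and the 10 spot pairs gave log2 ratios of 0.46 to 0.54. The Ier3 ratio of 0.50 ± 0.0074 was well outside spot error but short of 2-fold, and 4.01% of measured genes had a ratio as high or higher. With quantile normalization, loess or the deposited value table it was 0.60, a shift larger than the spread of a single spot pair at that signal (0.07). Ier5 moved likewise, to between 0.34 and 0.35. Normexp (0.52) and spike-in scaling (0.54) moved Ier3 by less than that spread, though by more than its spot error.

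**Figure D2:**
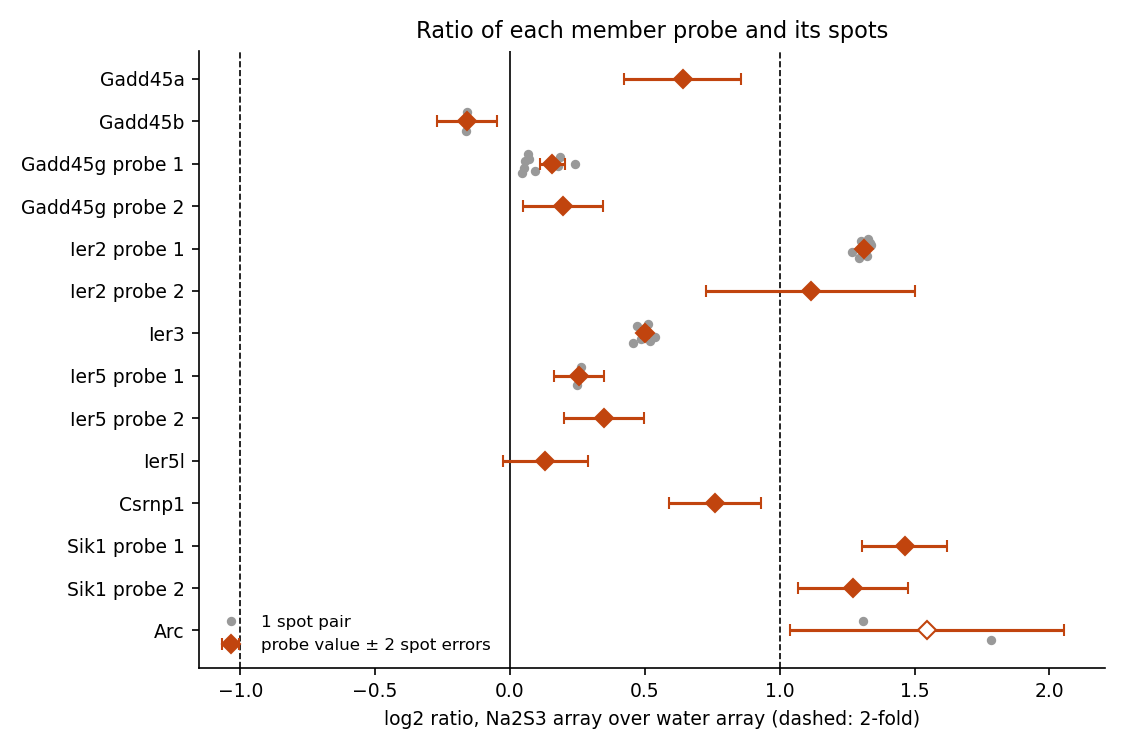
Log2 ratio of the Na2S3 array over the water array for every member probe, with probe values as diamonds with bars of 2 spot errors either way, single spot pairs as grey points, and an open diamond for Arc, which passed the background limit after Na2S3 only. The Ier2 and Ier3 spot pairs cluster tightly, at 1.27 to 1.34 and at 0.46 to 0.54, while the Arc pairs, drawn at their measured signals, lie at 1.31 and 1.78.

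Sik1 had the highest ratio among the measured members. Its brighter probe had 11.1 in the Na2S3 array and 4.03 in the water array, a log2 ratio of 1.46 ± 0.08 (2.76-fold). The other probe, 2021 bases away, had 1.54 in the Na2S3 array and 0.639 in the water array, a log2 ratio of 1.27 ± 0.10. Each Sik1 probe had 1 spot per array, and both were past 2-fold with a difference of 0.19 ± 0.13 between them. For comparison, the median absolute difference between the probes of a gene was 0.15 over 2552 genes with 2 measured probes. Sik1 ranked 49 and Ier2 ranked 64 of 13019 genes, and the Sik1 value exceeded that of Ier2 by 0.15 ± 0.08, which is under 2 spot errors. When genes were named through the RefSeq accession, which leaves Sik1 its dimmer probe, the difference of Sik1 and Ier2 was -0.04.

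The promoters of Ier2 and Sik1 are shown because these members were past 2-fold among those measured on both arrays, with capitals as above. They lie at chr19:40399123-40399422 on the plus strand for Ier2 and chr20:9958597-9958896 on the minus strand for Sik1 (RefSeq, GRCr8).
Ier2: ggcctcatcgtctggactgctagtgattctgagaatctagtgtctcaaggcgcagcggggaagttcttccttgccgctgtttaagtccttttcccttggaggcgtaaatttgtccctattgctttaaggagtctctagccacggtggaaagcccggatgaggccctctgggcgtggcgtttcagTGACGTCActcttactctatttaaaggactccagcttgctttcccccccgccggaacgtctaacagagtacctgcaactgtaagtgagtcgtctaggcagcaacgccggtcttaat
Sik1: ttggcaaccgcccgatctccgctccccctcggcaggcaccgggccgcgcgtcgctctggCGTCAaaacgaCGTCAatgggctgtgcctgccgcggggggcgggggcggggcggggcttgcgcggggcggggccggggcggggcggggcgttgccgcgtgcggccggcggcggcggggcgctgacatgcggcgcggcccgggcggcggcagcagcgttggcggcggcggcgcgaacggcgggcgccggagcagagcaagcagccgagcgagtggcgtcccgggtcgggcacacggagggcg
The Ier2 window held the full element TGACGTCA, at position -66 from the start, where it overlaps 2 TGACG cores, 1 on each strand. That element was found in 1 of the 7 member promoters listed in the RefSeq table (Gadd45a, Gadd45b, Gadd45g, Ier2, Ier5, Ier5l and Sik1) and in 1.83% of all promoters. Sik1 held 2 separate TGACG cores, at -191 and -180, and an EGR site (GCGNGGGCG) at -152, a motif found in 4.98% of all promoters. The TGACG core was in 4 of the 7 member promoters and in 21.2% of all promoters. The AP-1 site (TGANTCA), the CArG box bound by SRF and the ATF4-CEBP element (TGATGCAAT) were each found in 0 of the 7, beside 7.33%, 1.64% and 0.188% of all promoters, which says only that these letters are not in these windows. The TATA box was in 2 of the 7, Ier5 and Gadd45g, and in 14.2% of all. The member windows held 52.7% to 81.3% G and C, the lowest in Ier2 and the highest in Sik1, beside a median of 51.7% over all promoters, and 14 to 55 CpG dinucleotides beside a median of 7.

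Csrnp1, also known as AXUD1 for its induction by AXIN1, had 2.54 in the Na2S3 array and 1.50 in the water array from 1 spot each. Its log2 ratio was 0.76 ± 0.09, and 1.67% of measured genes stood as high or higher. Under the alternatives that measured it, the Csrnp1 ratio ran from 0.71 to 0.80 and never reached 2-fold. The probe lies at chr8:124933607-124933666 on the minus strand (rn4).

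Arc was the 1 member without a measured level on both arrays. Its spots had 0.171 and 0.148 in the Na2S3 array, against 0.0497 and 0.0597 in the water array. The dimmest probe well above background in the water array stood at 0.0444, and negative control spots there had a median of 0.00953. The software's background flag was passed by 2 of 2 Arc spots in the Na2S3 array and by 1 of 2 in the water array, so the water level counts as not well above background. The ratio of 2.92-fold (log2 ratio of 1.54) uses the mean water signal of the Arc probe itself and is not a lower bound. The spot pair whose water spot passed the flag stood at 2.47-fold, below the ratio from the means. With normexp background correction the Arc value was 1.41-fold (log2 0.49), short of 2-fold. That setting also adds an offset of 50 intensity units to every signal. Before it, the Arc spots had 81.7 and 70.5 units in the Na2S3 array and 20.6 and 24.7 in the water array. Whether Arc passed 2-fold thus depended on this setting, and its correction and offset were not tested apart. The probe lies at chr7:112772025-112772084 on the minus strand (rn4).

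Ordered by log2 ratio, the measured members ran Sik1, Ier2, Csrnp1, Gadd45a, Ier3, Ier5, Gadd45g, Ier5l and Gadd45b. Gaps between neighbours exceeded 2 spot errors at 3 places: between Ier2 and Csrnp1 (0.55 ± 0.09), between Ier3 and Ier5 (0.24 ± 0.05) and between Ier5l and Gadd45b (0.29 ± 0.10). The other neighbours did not differ beyond 2 spot errors. The place of Gadd45g rested on its discarded spot: with outlier spots kept it stood at 0.12, below Ier5l, and its gap to Ier5 was 0.14 ± 0.05, past 2 spot errors. Sik1 and Ier2 thus stood highest, Csrnp1, Gadd45a and Ier3 in the middle, and Gadd45b lowest, and the order among Ier5, Gadd45g and Ier5l was not settled. The highest 5% of all measured genes lay above 0.45, and 5 of the 9 members were among them. At least 1.5-fold higher were 4 of the 9, beside 2.95% of all measured genes. Since the members were chosen with earlier results of these data known, such counts are description only.

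**Figure D3:**
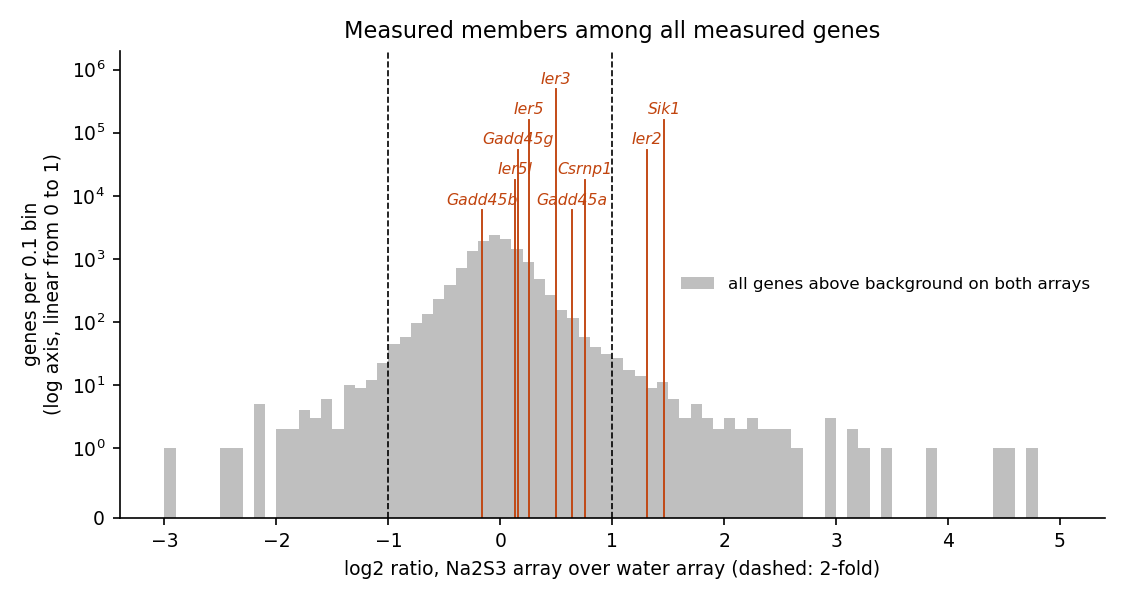
Number of genes per bin of 0.1 in log2 ratio of the Na2S3 array over the water array (log count axis, linear from 0 to 1), for the 13019 genes above background on both arrays, with the 9 measured members as vertical lines. Ier2 and Sik1 lie beyond the dashed 2-fold line, and Gadd45b lies just left of 0.

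Around the members, 7 lists of related genes hold 72 names, of which 69 had a probe and 56 were measured on both arrays. By the 2-fold rule, 1 of the 56 was higher and 0 were lower, beside the 0.945% and 0.614% of all measured genes, and the median log2 ratio of the 56 was 0.06. Errors of listed genes come from the spread of repeat probes at a similar signal. The partners of GADD45 proteins (MAP3K4, the p38 and JNK kinases and their activators, CDK1, cyclin B1, PCNA and p21) had 0 of 14 measured members past 2-fold and a median of -0.04, which was 0.04 with quantile normalization. Cdkn1a, the gene of p21, came closest at 0.95 ± 0.03 at its brighter probe. Its other probe was past 2-fold, and so was the median over its probes (1.03). Map2k6, an activating kinase of p38, had 0.69 ± 0.19, and 0.38 with normexp. Map3k4 itself, named after its value was seen, had 0.12 ± 0.18, within its spot error of 0.

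The other genes named for growth arrest or DNA damage split. Ddit3 (GADD153, the stress transcription factor CHOP) had 37.3 in the Na2S3 array and 13.7 in the water array, a log2 ratio of 1.45 ± 0.07, and was the 1 listed gene past 2-fold. Chosen after their values were seen, Ppp1r15a (GADD34, which directs the phosphatase that restores translation) had 0.82 ± 0.11 and Gas1, a growth arrest gene of quiescent cells, -0.87 ± 0.05. The list's median of -0.01 over 5 genes was 0.15 with quantile normalization and so carries no settled sign. The family relatives of the members had 0 of 3 measured genes past 2-fold and a median of -0.03, which was 0.01 with quantile normalization. Csrnp2, a paralog of Csrnp1, had -0.52 ± 0.07 at its brighter probe and 0.16 at the other. Sik3, a paralog of Sik1, had 0.14 ± 0.07 at its brightest probe and up to 0.66 at another.

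The axis that Sik1 acts on (its activating complex of Stk11, Strada and Cab39, the CRTC coactivators, CREB factors, class IIa histone deacetylases and MEF2 factors) had 0 of 16 measured genes past 2-fold and a median of 0.06. Its largest ratios were those of Pde4d, a cyclic AMP phosphodiesterase gene, at -0.83 ± 0.07, and Mef2d at 0.53 ± 0.08. Pde4d was read by 6 probes that ran from -0.83 to 0.17 with a median of -0.12, so its ratio depended on the probe. Mef2d likewise had 0.06 at its other probe. Of the CRTC genes, named after their values were seen, Crtc1 (0.05) and Crtc2 (0.02) lay within their spot errors of 0, and Crtc3 had 0.25 ± 0.09. The class IIa histone deacetylases, likewise named afterwards, had 0.42 ± 0.09 (Hdac4), 0.12 ± 0.07 (Hdac5) and 0.08 ± 0.08 (Hdac7).

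Partners of the IER proteins (HSF1, PP2A subunits, MCL1 and CDC25B) had 0 of 7 measured genes past 2-fold and a median of 0.16, with Ppp2r2d at 0.35 ± 0.11 and Hsf1 at 0.26 ± 0.07. SRF and its cofactors, which drive many early genes through the CArG box, had 0 of 5 past 2-fold and a median of 0.09, with Srf at 0.57 ± 0.11 and Elk4 at 0.18 ± 0.11. Genes tied to Arc in neurons had 0 of 6 past 2-fold and a median of 0.03, with Bdnf at 0.70 ± 0.36 and Homer1 at 0.28 ± 0.09. Bdnf stood at 0.24 with normexp, and the neuronal early factor Npas4 stayed at background in both arrays. Beside Arc, 2 listed genes passed the background limit after Na2S3 only, Camk2b and Ier3ip1. The brightest of 3 Camk2b probes had 0.168 in the Na2S3 array, 3.78-fold the level of the dimmest water probe well above background. Ier3ip1 had 0.0814 at its 1 probe, 1.83-fold that level. Both signals were dim, and no normexp value is given for them. Arc failed the limit at a higher water level, so these folds are not strict lower bounds. Sh3gl3, of the Arc list, passed it in the water array only, at 0.0458 in the Na2S3 array and 0.0531 in the water array.

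**Figure D4:**
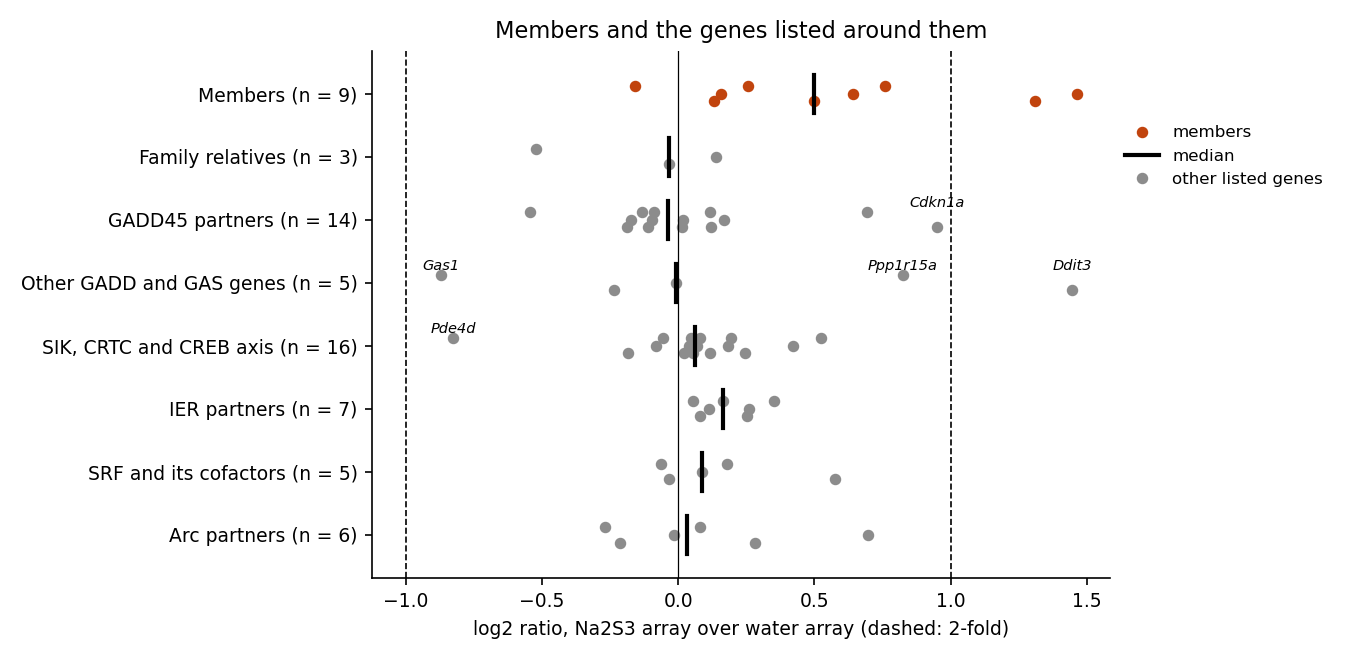
Log2 ratio of the Na2S3 array over the water array for the 9 measured members (top row) and the measured genes of the 7 surrounding lists, with each point 1 gene and each bar the median of a row. The member median of 0.50 lies right of the list medians, which run from -0.04 to 0.16, and genes beyond 0.8 either way in the lists are named.

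Over the alternatives with a filter on dim probes, the log2 ratio of Sik1 ran from 1.27 to 1.51, that of Ier2 from 1.21 to 1.36, that of Gadd45a from 0.62 to 0.69 and that of Gadd45b from -0.16 to -0.12. No measured member changed sign under the alternatives that gave it a value (0 of 113 values). Several of these could not change the value of a member read by 1 probe. The count of members past 2-fold was 2 under each alternative with the filter except with repeat-spot probes alone, which leave out Sik1 and give 1. Without the filter it was 3, with Arc added.

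**Figure D5:**
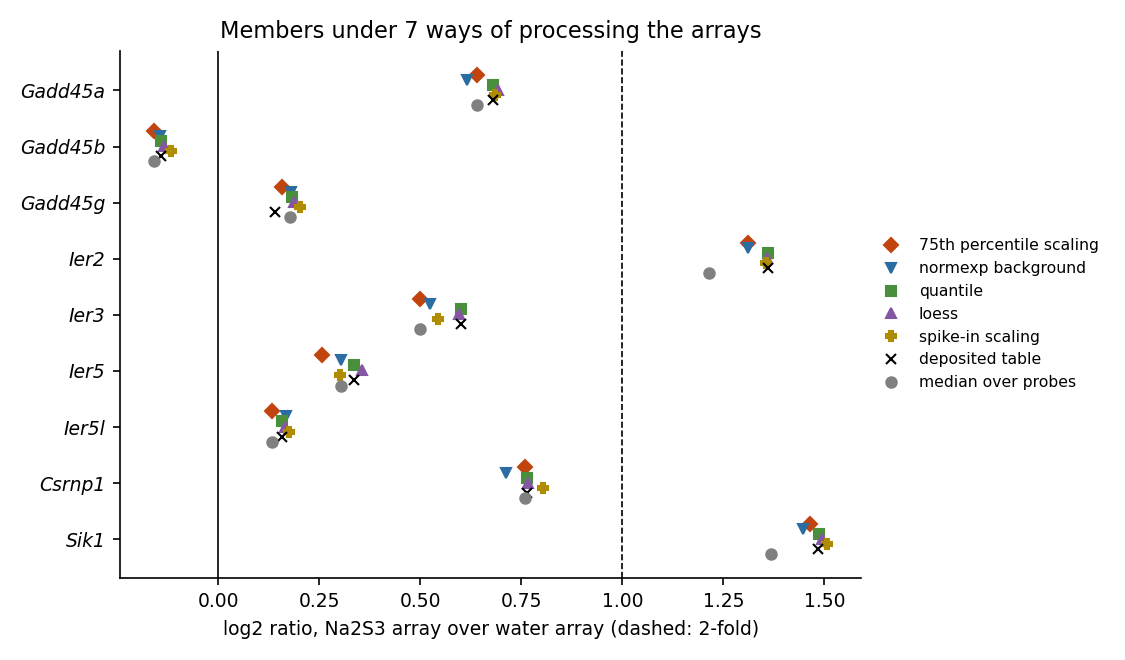
Log2 ratio of the Na2S3 array over the water array for each measured member (rows) under 7 ways of processing the arrays (markers). Ier2 and Sik1 stay right of the dashed 2-fold line in all 7, Gadd45b stays left of 0, and Ier3 moves most among the others, between 0.50 and 0.60.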

How the data were processed

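RNA from 1 Na2S3 culture and 1 water culture of IEC6 cells was compared on 2 arrays of 1 slide, scanned on 1 day, per the file headers. The deposited scanner files hold spot intensity values from Agilent Feature Extraction 10.7.1.1, background-subtracted and spatially detrended within each array, per the file headers, with no normalization between arrays. Version 9.5.1.1 is named per the submitters' processing notes. The authors' deposited value table holds linear intensity values with an equal median (19.3) in both columns. The sources used here do not give its normalization, and its sorted columns differ by at most 0.0186%, as after quantile normalization.

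Outlier spots were left out (390 of the Na2S3 array, 448 of the water array). The log2 processed signal was averaged over a probe's spots, less the array's 75th percentile of non-control probes, a shift between the arrays of 0.21. By 7 spike-in probes the shift was 0.16, with single probes from 0.09 to 0.32, a spread that spot errors leave out. A probe counted as well above background with over 50% of its spots so flagged. A gene takes the value of its brightest probe that passed on both arrays, as Na2S3 over water. Gene names are those of the files (35852 of 45598 probes). A further 9746 probes, with an accession alone, were left out. Since each group has 1 array, no test was run, precision is limited by the number of arrays, and genes were counted at 2-fold either way. The summary was tried on simulated arrays with equal noise at every signal and with changes well past 2-fold only. That trial does not cover dim genes or ratios near 2-fold.

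Members and lists were chosen with earlier results of these data known. Immune markers are not reported here. All members are named, with the listed genes past 2-fold or otherwise the 2 with the largest ratio in each list. Alternatives changed background correction (normexp, offset 50), scaling, probe rule, filter, outlier flags, gene names and source of values. Python 3.11.15, numpy 2.4.6, pandas 2.3.3, R 4.3.3 and limma 3.58.1 were used.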

Additional observations from a re-analysis of the deposited data

How the results depend on the processing

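Every member measured on both arrays kept its sign under the alternatives that gave it a value, and 104 of 113 member values moved by less than the spread of a single spot pair at that signal. The rest were Ier3 and Ier5 with quantile normalization, loess and the deposited table, and Sik1 by mean or median over probes (1.37) and by RefSeq accession (1.27). Members read by 1 probe could not move with the probe rule, the filter or the gene names. Quantile normalization and the deposited table gave nearly equal values, so the 113 values are not separate checks. Arc, at 2.92-fold in the main setting, stood at 1.41-fold with normexp and so lost 2-fold. The median of the members was 0.60 with quantile normalization, loess and the deposited table. By the 2-fold rule, 123 of all genes were higher and 80 lower. These counts were 61 and 30 with normexp and 1062 and 1532 with no filter on dim probes, which put the share of higher calls at 60.6% in the main setting and 40.9% without the filter. The count of lower genes was 52 with a mean signal of at least 64 and 44 by RefSeq accession, where fewer genes were counted (11417 and 9880). Probes with repeat spots alone, an alternative chosen after seeing the data, measured 5 members, with 1 past 2-fold and a median of 0.26, and gave 19 higher and 5 lower genes of 1307. The normexp setting also adds an offset of 50 to every signal, and its correction and offset were not tested apart. No paired analysis was possible because each group has 1 array, and for the same reason no replicate could be left out. Signal over background limits Arc and the dimmer Ier2 probe.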

Other observations

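A Gadd45g spot, in the first row of spots on the slide layout, was the dimmest of the 10 on both arrays, at a scaled signal of 5.23 in the Na2S3 array and 4.64 in the water array, against at least 6.61 at the other 9 in the Na2S3 array and up to 6.88 in the water array. The software marked this dimmest spot as an outlier in the Na2S3 array alone. Its own log2 ratio was 0.17, inside the range of 0.05 to 0.24 at the other spot pairs.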
